A study of Homo sapiens with 12 samples.

Results

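Aminoacyl-tRNA synthetases are the enzymes that join each amino acid to its tRNA. The genes described here were chosen by name. They comprise the synthetase genes whose symbol is a 1-letter amino acid code followed by ARS, with or without a 1 or a 2, together with EPRS1, FARSA, FARSB and the scaffold genes AIMP1, AIMP2 and EEF1E1. Of the 29696 genes listed, 40 met this rule. They are 20 cytosolic synthetases, 17 mitochondrial synthetases whose symbol ends in 2, and 3 scaffold proteins of the cytosolic multi-synthetase complex.

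The study compared A375 cells, a human melanoma line, in which a lentivirus delivered either an shRNA against the m6A demethylase ALKBH5 (shALKBH5) or a control shRNA (shCtrl, called Scramble in the paper). Each group had 3 input libraries of poly(A) RNA and 3 libraries made after precipitation with an antibody against m6A (IP). The methods give 48 h after infection as the time of harvest for RNA-Seq, and no time for the precipitation. The hairpin used for sequencing is not named, and the labels do not say whether the replicates were separate cultures. The paper states for its experiments in general that they were repeated independently, without naming the sequencing, so p-values are taken here to measure only the spread between these samples, which may be technical. Expression is given as FPKM, the number of fragments corrected for the length of the transcript and for the total mapped in that library. Read counts were not used here and the depth is unknown. The labels give the mouse build mm10, whereas all 40 members were found in a human annotation and the coordinates of all 40 overlapped the RefSeq positions on GRCh38.p14, with an equal start or end in 28.

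Cells hold separate sets of synthetases for protein synthesis in the cytosol and in the mitochondria, encoded in the nucleus and nearly all by different genes. In the cytosol, a group of the enzymes is held together by scaffold proteins in the multi-synthetase complex. When amino acids run short or the endoplasmic reticulum is stressed, the transcription factor ATF4 is known to raise many cytosolic synthetase genes along with genes of amino acid synthesis and uptake.

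ALKBH5, the target of the shRNA, was at 3.39, 3.92 and 3.12 FPKM in the shALKBH5 libraries and at 19.3, 17.8 and 17.6 FPKM in the shCtrl libraries. The groups did not overlap. The mean in shALKBH5 cells, 3.48 ± 0.410 FPKM (SD, n = 3), was 19.1% of the mean in shCtrl cells, 18.2 ± 0.962 FPKM (SD, n = 3). The log2 fold change was -2.36 (SE, the standard error, 0.09, adjusted p = 1.3e-06, limma with Benjamini-Hochberg), and a two-sided exact permutation test gave p = 0.1, the smallest that 3 libraries against 3 can give.

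The melanoma label was checked against marker genes. SOX10, a transcription factor of the melanocyte lineage, stood at 180.2, 180.0 and 181 FPKM in shALKBH5 and at 192, 182 and 179 FPKM in shCtrl cells. S100B was at 82.3, 85.1 and 79.0 FPKM against 31.5, 33.0 and 34.2 FPKM. Pigment genes were low. MITF was at a mean of 1.26 FPKM in shALKBH5 and 0.777 FPKM in shCtrl cells, with a log2 fold change of 0.63 (adjusted p = 0.048, limma with Benjamini-Hochberg) and overlapping groups. PMEL, too low to be tested, was at 0.611 against 0.237 FPKM without overlap, and TYR was listed at 0 in all 3 shCtrl libraries. The 7 melanocytic markers analysed summed to 265, 267 and 262 FPKM in shALKBH5 and to 225, 217 and 214 FPKM in shCtrl cells, a difference that lay mainly in S100B. Of other cell types, the 5 fibroblast markers summed to at most 4.31 FPKM, led by LUM, and the 3 endothelial markers to at most 0.388 FPKM, led by VWF. The leukocyte marker analysed, CD14, reached at most 0.211 FPKM. The 2 keratinocyte markers analysed summed to 11.5, 11.2 and 10.7 FPKM in shALKBH5 and to 9.53, 8.90 and 8.97 FPKM in shCtrl cells, nearly all of it KRT10. The sums of the melanocytic, keratinocyte and fibroblast markers were higher in shALKBH5 cells without overlap, each mostly through 1 gene (S100B, KRT10 and LUM), and the endothelial sum was lower without overlap. Other markers of the keratinocyte and fibroblast sets went the other way without overlap, with KRT14 at a mean of 0.369 FPKM in shALKBH5 against 0.961 FPKM in shCtrl cells, PDGFRA at 0.242 against 0.422 FPKM and COL1A2 at 0.0158 against 0.0499 FPKM. The part of these markers in the results on the synthetases was not tested.

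All 40 members passed the filter of a mean of at least 0.5 FPKM. Of these, 26 passed an adjusted p of 0.05 between the groups (65.0%; limma with Benjamini-Hochberg over all tested genes), against 61.0% of the 12985 genes tested. The 26 were split into 20 that were higher in shALKBH5 cells (34.7% of all tested genes were) and 6 that were lower (26.2% of all tested genes were). The share of members called was near that of all genes, and their direction leaned upward. After rescaling every library by its median ratio, 18 members rose and 8 fell, whereas of all tested genes 3769 rose and 3913 fell. Their median log2 fold change was 0.23, against 0.09 over all tested genes, and single members ranged from -0.63 for MARS1 to 0.81 for MARS2. The 3 libraries of each group did not overlap in 29 members, 22 higher and 7 lower, against 67.0% of all tested genes in either direction, 38.0% higher and 29.0% lower. These are levels of RNA from whole cultures, so fewer cells expressing a gene and less RNA per cell cannot be told apart.

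In both compartments more synthetases were called higher than lower. Over all tested genes, 61.0% were called, 34.7% higher and 26.2% lower. Of the 20 cytosolic synthetases, 8 were higher and 3 lower (55.0% called), with a median log2 fold change of 0.19. With single libraries left out, 6 to 11 were higher, and the median was 0.11 without shCtrl replicate 1. Of the 17 mitochondrial synthetases, 9 were higher and 3 lower (70.6% called, against 61.0% of all tested genes), with a median of 0.24. All 3 scaffold genes were higher, with a median of 0.34. Rescaling moved the median of all genes from 0.09 to 0.01 and left the cytosolic set at 6 higher and 4 lower, the mitochondrial set at 9 and 4, and the scaffold genes at 3 and 0. No test of the difference between the compartments was made.

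**Figure D1:**
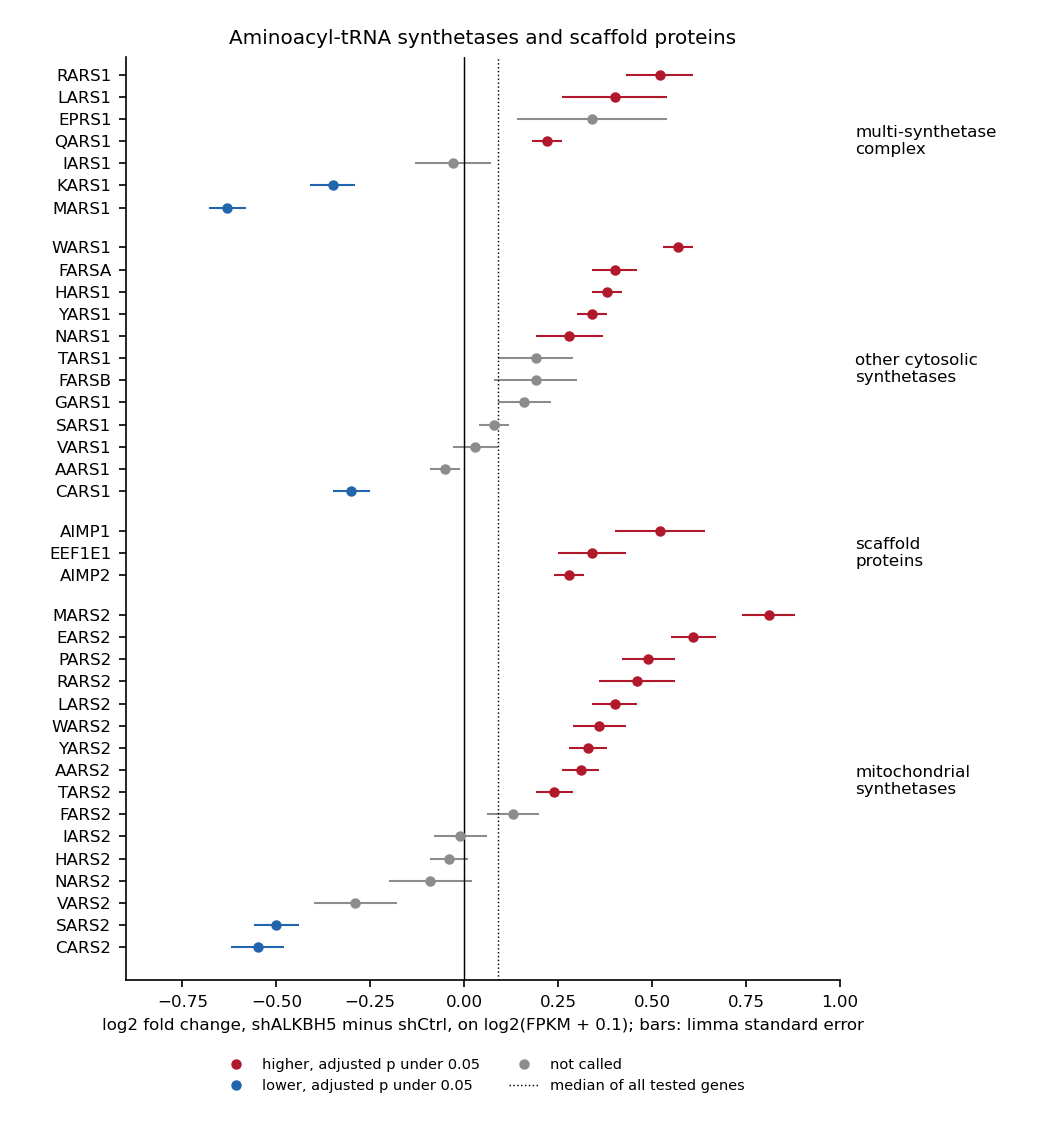
Log2 fold change of 38 members between shALKBH5 and shCtrl input libraries (horizontal axis, on log2(FPKM + 0.1)), with limma standard errors as bars, coloured by call and ordered within each class; the dotted line is the median of all tested genes, 0.09. Each synthetase class spans both directions, from -0.63 for MARS1 to 0.81 for MARS2, while the 3 scaffold genes lie between 0.28 and 0.52.

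The cytosolic enzymes were the more abundant. Median levels over the 6 libraries were 27.5 FPKM for the 8 synthetases of the multi-synthetase complex, 22.7 FPKM for the other 12 cytosolic synthetases, 7.33 FPKM for the scaffold genes and 6.28 FPKM for the mitochondrial enzymes. FARSA had the highest level, a mean of 124 FPKM, followed by QARS1 at 76.3 and SARS1 at 62.1 FPKM. AIMP1 had the lowest, 1.74 FPKM. No mitochondrial synthetase exceeded IARS2, at a mean of 16.8 FPKM.

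Within the multi-synthetase complex, 3 synthetases rose and 2 fell (62.5% called, against 61.0% of all tested genes), with a median log2 fold change of 0.10. MARS1 charges methionine and loads the initiator tRNA. It was at 25.9, 26.1 and 27.1 FPKM in shALKBH5 and at 43.1, 39.7 and 40.2 FPKM in shCtrl cells. No library of either group reached the range of the other, and the log2 fold change was -0.63 (SE 0.05, adjusted p = 2.1e-05, limma with Benjamini-Hochberg). KARS1 charges lysine, and its gene gives both the cytosolic and the mitochondrial enzyme. It was at 48.9, 48.7 and 44.3 FPKM against 55.8, 63.4 and 62.3 FPKM. Its groups did not overlap either, and it fell by 0.35 on the log2 scale (adjusted p = 0.0021, limma with Benjamini-Hochberg).

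RARS1, the arginine enzyme, moved the other way. It was at 39.8, 39.0 and 36.0 FPKM in shALKBH5 and at 23.8, 30.7 and 26.0 FPKM in shCtrl cells. All shALKBH5 values were above all shCtrl values, with a log2 fold change of 0.52 (SE 0.09, adjusted p = 0.002, limma with Benjamini-Hochberg). LARS1 charges leucine and is also known as a leucine sensor upstream of mTORC1. It was at 5.85, 5.27 and 5.12 FPKM against 3.35, 4.98 and 4.00 FPKM. The lowest shALKBH5 value stood just above the highest shCtrl value, with a log2 fold change of 0.40 (SE 0.14, adjusted p = 0.035, limma with Benjamini-Hochberg). Its call did not hold with fewer libraries in most cases, though most values stayed near 0.40. Leaving out any shALKBH5 replicate (0.35, 0.42 and 0.44 without replicates 1, 2 and 3) or shCtrl replicate 1 or 3 (0.27 and 0.40) ended the call, as did testing without the filter or without the variance trend. QARS1, the glutamine enzyme, rose by 0.22 (adjusted p = 0.0026, limma with Benjamini-Hochberg), and its value of 0.14 after rescaling was not called.

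The other 3 enzymes of the complex, IARS1 and EPRS1 among them, did not pass the test. IARS1, the isoleucine enzyme, had the smallest difference of the complex. It was at 22.9, 23.1 and 20.4 FPKM against 19.6, 25.7 and 22.7 FPKM, so that the shALKBH5 values lay within the shCtrl range. Its log2 fold change was -0.03 (SE 0.10, adjusted p = 0.82, limma with Benjamini-Hochberg), and its sign turned without shALKBH5 replicate 3 (0.03) or shCtrl replicate 2 (0.07). EPRS1, which carries the glutamate and the proline enzyme in one protein, had 0.34 with overlapping groups. Its value hung on single libraries, from 0.16 without shCtrl replicate 3 to 0.54, which was called, without shCtrl replicate 2. With rescaled libraries the complex held 2 synthetases higher and 3 lower, with a median of 0.02.

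Among the 12 other cytosolic synthetases, 5 rose and 1 fell (50.0% called, against 61.0% of all tested genes). Their median was 0.19. After rescaling 4 were higher and 1 lower, with a median of 0.11. WARS1, the tryptophan enzyme, is known as an interferon-induced gene. It was at 49.0, 49.8 and 49.1 FPKM in shALKBH5 and at 32.8, 34.7 and 32.2 FPKM in shCtrl cells. The replicates lay close together and the groups far apart, with a log2 fold change of 0.57 (SE 0.04, adjusted p = 2.3e-05, limma with Benjamini-Hochberg). FARSA is the catalytic chain of the phenylalanine enzyme. It was at 141, 139 and 145 FPKM against 117, 103 and 101 FPKM. The groups did not overlap, and shCtrl replicate 1 stood nearest to the shALKBH5 libraries. Its log2 fold change was 0.40 (SE 0.06, adjusted p = 7.4e-04, limma with Benjamini-Hochberg). FARSB, the partner chain in the same enzyme, was at a mean of 4.10 FPKM, far below FARSA, and its log2 fold change of 0.19 did not pass the test and was 0.09 without shCtrl replicate 1.

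HARS1, the histidine enzyme, was at 19.2, 19.5 and 19.4 FPKM in shALKBH5 and at 15.1, 14.8 and 14.8 FPKM in shCtrl cells. Both groups were tight and did not overlap, with a log2 fold change of 0.38 (SE 0.04, adjusted p = 1.2e-04, limma with Benjamini-Hochberg). The tyrosine enzyme YARS1 rose by 0.34 (adjusted p = 2.2e-04) and the cysteine enzyme CARS1 fell by 0.30 on the log2 scale (adjusted p = 0.0019, limma with Benjamini-Hochberg). NARS1, for asparagine, rose by 0.28 with an adjusted p of 0.036 (limma with Benjamini-Hochberg). Its call ended after rescaling (0.20), without the filter, without the variance trend, with the replicate block, and without shALKBH5 replicate 1 (0.23) or 2 (0.27) or shCtrl replicate 1 (0.18) or 3 (0.30).

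VARS1, the valine enzyme, showed the smallest difference of these 12. It was at 30.6, 30.8 and 32.8 FPKM in shALKBH5 and at 33.3, 29.1 and 29.8 FPKM in shCtrl cells. The shALKBH5 values fell inside the shCtrl range, with a log2 fold change of 0.03 (SE 0.06, adjusted p = 0.65, limma with Benjamini-Hochberg) that was -0.04 after rescaling and 0.00 without shCtrl replicate 2. GARS1 charges glycine, and its gene serves both compartments. It was at 12.3, 12.6 and 11.6 FPKM against 10.0, 11.7 and 10.9 FPKM. The lowest shALKBH5 value lay just below the highest shCtrl value, and the value of 0.16 (SE 0.07, adjusted p = 0.071, limma with Benjamini-Hochberg) did not pass the test, though 0.22 did without shCtrl replicate 2. TARS1, for threonine, had 0.19, was called at 0.29 without the same library, and was at 0.10 without shCtrl replicate 1. AARS1, for alanine, had -0.05. SARS1, for serine, had 0.08 and was called at 0.11 without shCtrl replicate 1, and its groups did not overlap.

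The scaffold genes rose together. AIMP1 binds tRNA and helps to hold the complex. It was at 2.25, 2.06 and 1.89 FPKM in shALKBH5 and at 1.46, 1.56 and 1.23 FPKM in shCtrl cells. The groups did not overlap, and the log2 fold change was 0.52 (SE 0.12, adjusted p = 0.0063, limma with Benjamini-Hochberg). EEF1E1, also known as AIMP3, binds the methionine enzyme. It was at 8.55, 8.79 and 7.29 FPKM against 5.94, 6.91 and 6.52 FPKM. Its shALKBH5 replicate 3 came near the shCtrl libraries without reaching them, with a log2 fold change of 0.34 (SE 0.09, adjusted p = 0.013, limma with Benjamini-Hochberg). AIMP2 is the core scaffold on which the complex assembles. It was at 32.9, 33.8 and 32.5 FPKM against 26.7, 27.2 and 27.8 FPKM. These groups were well apart, with a log2 fold change of 0.28 (SE 0.04, adjusted p = 5.6e-04, limma with Benjamini-Hochberg). MARS1 and its binding partner EEF1E1 thus moved in opposite directions.

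**Figure D2:**
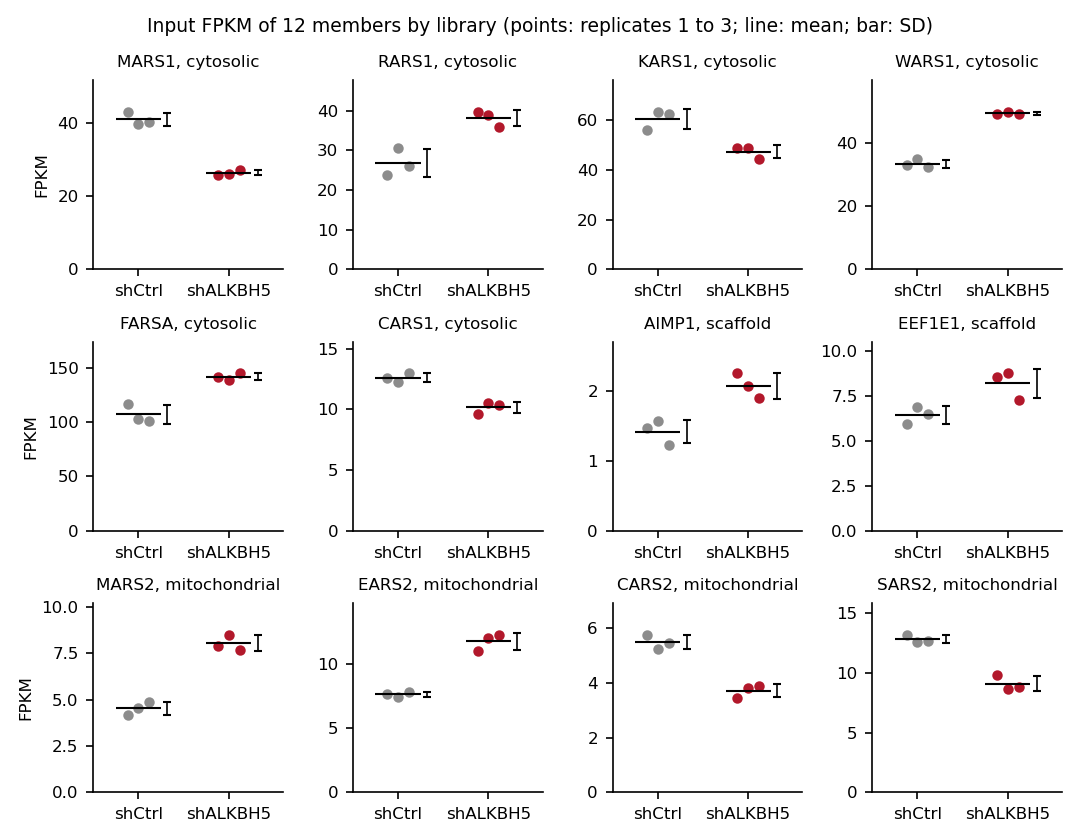
FPKM of 12 called members, picked out after their values were seen, in each input library (vertical axis, starting at 0), with points for replicates 1 to 3, a line at the mean and a bar for the SD of each group. In all 12 panels the 3 shALKBH5 libraries and the 3 shCtrl libraries do not overlap, which the choice fixed, since no called member had overlapping groups. Of all tested genes, 67.0% had groups that did not overlap.

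Among the mitochondrial synthetases, MARS2, which charges methionine, had the largest log2 fold change of all 40 members. It was at 7.92, 8.51 and 7.67 FPKM in shALKBH5 and at 4.18, 4.57 and 4.85 FPKM in shCtrl cells. The groups were far apart, with a log2 fold change of 0.81 (SE 0.07, adjusted p = 6.5e-05, limma with Benjamini-Hochberg). EARS2 charges glutamate. In mitochondria it also loads glutamate onto the tRNA for glutamine, which is then amidated, since there is no separate mitochondrial glutamine enzyme. EARS2 was at 11.0, 12.0 and 12.3 FPKM against 7.68, 7.44 and 7.85 FPKM. All shALKBH5 libraries were above all shCtrl libraries, with a log2 fold change of 0.61 (SE 0.06, adjusted p = 8.5e-05, limma with Benjamini-Hochberg).

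The 3 mitochondrial synthetases that fell included those for cysteine and serine. CARS2, for cysteine, was at 3.44, 3.79 and 3.88 FPKM in shALKBH5 and at 5.75, 5.24 and 5.43 FPKM in shCtrl cells. SARS2, for serine, was at 9.78, 8.63 and 8.83 FPKM against 13.2, 12.6 and 12.7 FPKM. In both genes every shALKBH5 library was below every shCtrl library. CARS2 fell by 0.55 (SE 0.07, adjusted p = 4.0e-04) and SARS2 fell by 0.50 on the log2 scale (SE 0.06, adjusted p = 2.9e-04, limma with Benjamini-Hochberg). The other 7 mitochondrial enzymes that rose were those for proline, arginine, leucine, tryptophan, tyrosine, alanine and threonine, from 0.49 for PARS2 to 0.24 for TARS2.

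The 5 mitochondrial enzymes that did not pass were FARS2, IARS2, HARS2, NARS2 and VARS2. IARS2, for isoleucine, was at 17.7, 17.0 and 15.6 FPKM in shALKBH5 and at 15.3, 18.0 and 17.2 FPKM in shCtrl cells. The shALKBH5 values lay within the shCtrl range, with a log2 fold change of -0.01 (SE 0.07, adjusted p = 0.96, limma with Benjamini-Hochberg). Its sign turned without shALKBH5 replicate 3 or shCtrl replicate 2 (0.04 in both) and without shCtrl replicate 3 (0.01). FARS2 had 0.13 and VARS2 had -0.29, both without overlap between the groups. VARS2 was called under the filter at 1 FPKM and with the replicate block (-0.29 in both), after rescaling (-0.36), and without shALKBH5 replicate 3 (-0.37), and was at -0.17 without shALKBH5 replicate 2.

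For 16 amino acids a cytosolic and a mitochondrial gene were set side by side, with EPRS1 used for both glutamate and proline and FARSA for phenylalanine. The cytosolic gene had the higher shCtrl level in 15 of the 16, at a median ratio of 2.5. The ratio of levels ran from 1.0 for leucine, the exception, to 39.5 for phenylalanine. Both genes rose for leucine, arginine, tryptophan and tyrosine, and both fell for cysteine. Methionine was the amino acid whose genes were called in opposite directions. In 5 pairs the mitochondrial gene alone was called (alanine, glutamate, proline, serine and threonine) and in 3 the cytosolic gene alone (histidine, asparagine and phenylalanine). For isoleucine and valine neither gene was called.

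The methionine pair shows the difference in one ratio. MARS1 was 10.31, 8.70 and 8.29 times as abundant as MARS2 in the shCtrl libraries and 3.27, 3.07 and 3.53 times in the shALKBH5 libraries. The ratio of FPKM was lower in every shALKBH5 library than in any shCtrl library, and it does not depend on how libraries are scaled.

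**Figure D3:**
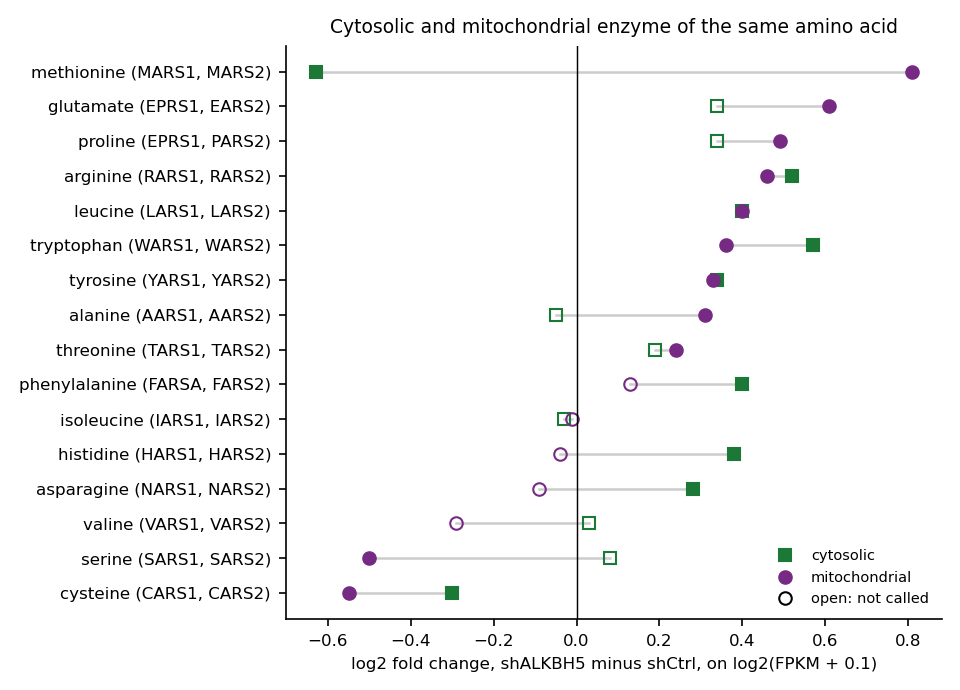
Log2 fold change between shALKBH5 and shCtrl cells (horizontal axis) of the cytosolic gene (square) and the mitochondrial gene (circle) for each of 16 amino acids, with open symbols for genes not called. Methionine has the widest gap, from -0.63 to 0.81, and leucine, isoleucine and tyrosine nearly coincide.

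Summed levels show what these changes amount to per library. The 20 cytosolic synthetases summed to 669, 662 and 663 FPKM in shALKBH5 and to 600.3, 608 and 588 FPKM in shCtrl cells, a ratio of 1.11. The 17 mitochondrial synthetases summed to 139, 141 and 138 FPKM against 126, 128 and 130.5 FPKM, a ratio of 1.09. Both sums were higher in every shALKBH5 library. After rescaling, the ratios were 1.05 and 1.03, and the mitochondrial groups overlapped. The cytosolic sum was 4.81, 4.70 and 4.81 times the mitochondrial sum in shALKBH5 and 4.76, 4.76 and 4.51 times in shCtrl cells, with overlapping groups.

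The gain in the cytosolic sum lay outside the multi-synthetase complex. The 8 complex enzymes summed to 239.7, 235 and 230.0 FPKM in shALKBH5 and to 230.1, 247 and 236 FPKM in shCtrl cells. These groups overlapped at a ratio of 0.99, and after rescaling the ratio was 0.94 with every shALKBH5 library lower. The 12 other cytosolic enzymes summed to 429, 428 and 433 FPKM against 370.2, 361 and 352 FPKM, a ratio of 1.19 (1.13 rescaled) without overlap. FARSA made up 21.1, 20.9 and 21.8% of the cytosolic sum in shALKBH5 and 19.5, 17.0 and 17.2% in shCtrl cells. Without FARSA the cytosolic sums were 528, 524 and 518 FPKM against 483, 505 and 487 FPKM. They did not overlap, but the ratio was 1.06, against 1.11 with FARSA. No rescaled sum without FARSA was made, so whether this gain holds after rescaling is not shown. The 3 scaffold genes summed to 43.7, 44.6 and 41.7 FPKM against 34.1, 35.7 and 35.6 FPKM, a ratio of 1.23 (1.17 rescaled).

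**Figure D4:**
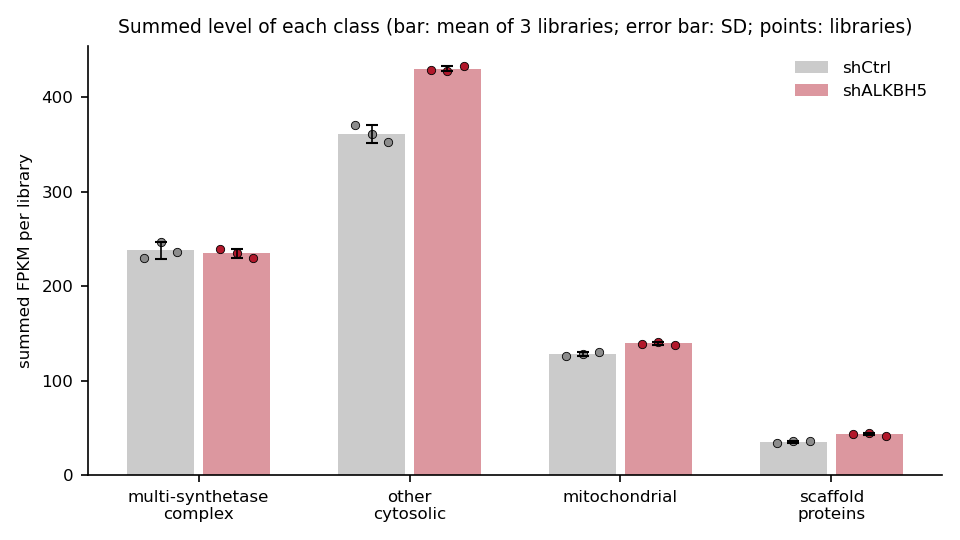
Summed FPKM per library (vertical axis, starting at 0) of the 4 classes of members, with bars for the mean of 3 libraries, error bars for the SD and points for the libraries. The 12 other cytosolic enzymes are higher in shALKBH5 cells (ratio 1.19), whereas the 8 enzymes of the complex overlap (ratio 0.99; 0.94 and lower in every shALKBH5 library after rescaling).

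Synthetases also fall into 2 structural classes with unrelated catalytic folds. Among the 18 class I enzymes, 11 rose and 3 fell (77.8% called), with a median log2 fold change of 0.34. Among the 18 class II enzymes, 6 rose and 3 fell (50.0% called), with a median of 0.15. Over all tested genes 61.0% were called, with a median of 0.09. EPRS1 holds one enzyme of each class and was counted in neither. After rescaling, class II held 5 higher and 4 lower and class I held 10 and 4. No test of the difference between the classes was made.

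Replicates were spread more widely in shCtrl than in shALKBH5 cells over all genes and for the cytosolic enzymes, but not for the mitochondrial enzymes and scaffold proteins by their medians. The median SD of log2 values was 0.11 in shCtrl and 0.08 in shALKBH5 cells over all tested genes, 0.11 and 0.07 for the cytosolic synthetases, 0.07 and 0.08 for the mitochondrial synthetases, and 0.11 and 0.12 for the 3 scaffold proteins. It was wider in the shCtrl group for 8704 of the 12985 genes tested, for 18 of the 20 cytosolic synthetases, for 9 of the 17 mitochondrial enzymes and for 2 of the 3 scaffold proteins.

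Several members overlap other genes, and their values are uncertain to that extent because the strand setting used in counting is not given. An expressed gene (a mean of at least 0.5 FPKM) overlapped 15 of the 40 members, on the opposite strand for 14 and on the same strand for 3. MARS1 shares 982 bases with DDIT3, a stress-response transcription factor gene whose log2 fold change was -0.15 (adjusted p = 0.076, limma with Benjamini-Hochberg). KARS1 fell and overlaps TERF2IP, which had 0.37, by 871 bases. Several other partners were called in the direction of the member. CARS2 shares 868 bases with ING1 (-0.77), AIMP2 1588 bases with EIF2AK1 (0.37, adjusted p = 0.0016), HARS1 1090 bases with WDR55 (0.33, adjusted p = 0.0013, limma with Benjamini-Hochberg for both), WARS2 264 bases with its antisense gene (0.61) and EARS2 11 bases with UBFD1 (0.46). HARS1 and HARS2 overlap each other by 108 bases, and DNM1L, not called, covers 18161 bases of YARS2. On the same strand, EARS2 shares 1242 bases with GGA2, HARS2 shares 626 bases with ZMAT2, and VARS2 lies along its 12255 bases in a gene at 1.08 against 0.412 FPKM, not called. MARS2, RARS1, LARS1, FARSA, AIMP1 and EEF1E1 had no such partner.

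The m6A data are lists of peaks, regions where the IP was enriched over the input, with 1 list per group and no value per library. No difference between the lists can therefore be tested. The lists held 46039 peaks for shALKBH5 and 44304 for shCtrl cells. At least 1 peak lay in 38 of the 40 members in shALKBH5 (95.0%) and in 36 in shCtrl cells (90.0%), against 86.0% and 85.5% of all tested genes. All 20 cytosolic synthetases had a peak in shALKBH5 and 19 in shCtrl cells. The mitochondrial enzymes had one in 15 and 14 of 17. IARS2 and RARS2 had none in either list.

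A peak in the shALKBH5 list alone was found for IARS1 and NARS2. The IARS1 peak was intronic (chr9:92240501-92240621, minus strand) at a fold enrichment of 7.35. The NARS2 peak lay in the 3' UTR (chr11:78436268-78436387, minus strand) at a fold enrichment of 1.75. Neither peak passed a stricter threshold of a fold enrichment of at least 2 with an FDR under 0.01.

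Members held 85 peaks in the shALKBH5 list and 74 in the shCtrl list. The number per gene was equal in 26 members, larger in shALKBH5 for 10 and larger in shCtrl for 4. VARS2 is among the 10 only because 1 peak stands in the shALKBH5 list a second time, with a start 1 base apart, and 4 peaks of HARS1 and HARS2 reach beyond the gene. Of the 85 peaks, 63 overlapped a shCtrl peak (74.1%, 95% Wilson interval 63.9 to 82.2%), and of the 74, 63 overlapped a shALKBH5 peak (85.1%, 75.3 to 91.5%). Over all peaks these shares were 78.1% and 81.3%. The intervals cover counting error only, and peaks of 1 gene share a transcript.

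Peak positions were counted by compartment from the region label that the authors gave each peak, with no test between compartments. Some peaks with the 5' UTR label have long genomic spans, such as 9401 bases in LARS1 and 6996 in AARS1 (shALKBH5 list). The label therefore does not place all of such a peak within the 5' UTR. In cytosolic synthetases 40.9% of peaks had the 5' UTR label in shALKBH5 (95% Wilson interval 27.7 to 55.6%), as did 41.9% in shCtrl cells (28.4 to 56.7%). In mitochondrial synthetases the 5' UTR held 13.8% (5.50 to 30.6%) and 18.2% (7.31 to 38.5%). Over all peaks it held 16.6% and 17.0%, and 20.5% and 20.7% without peaks in non-coding RNA, which no member has (a base chosen after seeing the data). The cytosolic intervals lie above both shares in each list, and the mitochondrial intervals include them. The 3' UTR held 47.7% and 46.5% of the cytosolic peaks and 65.5% and 63.6% of the mitochondrial peaks, against 45.5% and 46.2% of all peaks and 56.2% and 56.4% without peaks in non-coding RNA. The cytosolic shares were thus near the first base and below the second. The 95% Wilson intervals of both compartments include the second base (33.8 to 62.1% and 32.5 to 61.1% cytosolic, 47.3 to 80.1% and 43.0 to 80.3% mitochondrial). The mitochondrial interval lies above the first base in shALKBH5 and includes it in shCtrl cells.

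By median, the strongest peak of a gene was higher for mitochondrial than for cytosolic enzymes in both lists. The median over genes of the strongest peak was 8.09 in shALKBH5 and 7.98 in shCtrl cells for mitochondrial synthetases, and 5.25 and 5.58 for cytosolic synthetases. Over all tested genes it was 7.42 and 7.66. Strength here means fold enrichment alone. Among the strongest member peaks in the shALKBH5 list was one in the 3' UTR of AIMP1 (chr4:106348827-106349456, plus strand), at a fold enrichment of 20.8. Its deposited log10 FDR was -4.92, and AIMP1 had the lowest level of all members (1.74 FPKM). The shCtrl peak that overlaps the AIMP1 peak was at 2.68 (log10 FDR -3.39).

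A few further members were picked out after their peak values were seen. The MARS2 transcript carried a single peak in each list, in the 3' UTR, at 13.7 in shALKBH5 and 14.8 in shCtrl cells. YARS2 had its strongest peak in the 3' UTR at 8.68 and 14.2. In WARS1 the strongest lay in the 5' UTR at 3.37 and 10.2. In LARS1 the strongest lay in the 5' UTR at 14.7 and 2.74, from peaks that do not overlap. The peak at 14.7 had a log10 FDR of -2.80. The shALKBH5 peak that overlaps the shCtrl peak was at 2.37, with a log10 FDR of -45.2. EEF1E1 had 2 peaks in each list, in the 3' UTR in shALKBH5 and in the 5' UTR in shCtrl cells, none of them shared. FARSA, the most abundant member, had 1 weak peak in its 5' UTR, at 1.61 and 1.84.

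**Figure D5:**
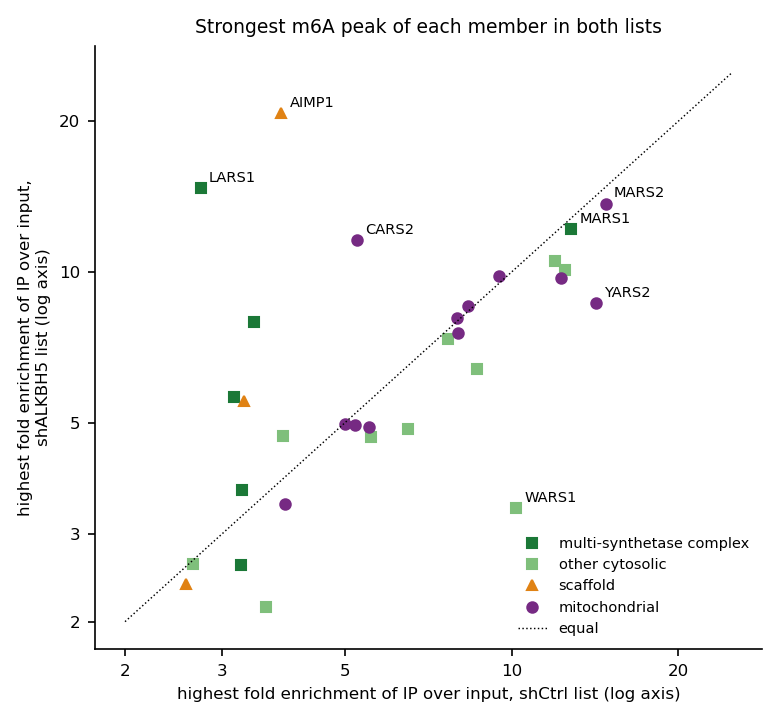
Highest fold enrichment of IP over input among the peaks of each member in the shCtrl list (horizontal log axis) and in the shALKBH5 list (vertical log axis), for 31 members with a peak past the stricter threshold in both lists; the dotted line marks equal values. Of the 31, 11 lie above the line and 20 below, with AIMP1 and LARS1 farthest above and WARS1 farthest below. The deposited log10 FDR was -4.92 for the shALKBH5 peak of AIMP1, -2.80 for that of LARS1 and -5.54 for the shCtrl peak of WARS1.

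Promoter sequences were examined because many of these genes are known ATF4 targets. RefSeq promoters on GRCh38.p14, from 250 bases before to 50 bases after each transcript start, were matched by symbol for 33 of the 40 members, and AARS2, LARS1, VARS1, VARS2 and YARS1 were among those not matched. The first motif searched, on both strands, was TGATGNAA, known as the CARE and bound by ATF4 with a C/EBP partner. It was found in 3.62% of all 35116 promoters in the table and in 8 members. The 33 matched members hold 45 promoters, and a member was counted when any of its promoters matched. The count of members is therefore not a share per promoter like the 3.62%. Of the 8 members, 7 are cytosolic (AARS1, CARS1, GARS1, IARS1, MARS1, NARS1 and TARS1) and 1 is mitochondrial (YARS2). Shown are the 30 bases that end with the match, 5′ to 3′ on the gene's strand with the motif in capitals, for 5 of the cytosolic genes, 2 of which fell and 3 of which were not called. They lie at chr12:57488042-57488071 (plus strand, MARS1), chr11:3057418-3057447 (minus, CARS1), chr9:92293703-92293732 (minus, IARS1), chr7:30594823-30594852 (plus, GARS1) and chr16:70289686-70289715 (minus, AARS1).
MARS1: agaagcgggaggccggttccggTTGCATCA
CARS1: ggcgcgacttccggggcggcggTTGCATCA
IARS1: tggatcccgcattttcagcgcgTTGCATCA
GARS1: cgccgcgtcgtttacgcggcgaTTTCATCA
AARS1: cccatcccaccttttctcgcagTTGCATCA

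These 5 matches read in the reverse orientation, as does that in TARS1, whereas the matches in NARS1 and YARS2, which are not shown, read forward. Of the 8 members with the motif, MARS1 and CARS1 fell, NARS1 and YARS2 rose, and the other 4 were not called. The match in MARS1 spans the transcript start, from base -4 to base 4. A match describes the letters in this window and is not evidence of a binding site or of a cause.

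The second motif was the E-box CACGTG, which reads the same on both strands and is bound by MYC and related factors. It was found in 7.26% of all promoters and in 5 members, again counted by gene and not by promoter. Of the 5, MARS2, EARS2 and CARS2 are mitochondrial, IARS1 is cytosolic and AIMP2 is a scaffold gene. The 2 mitochondrial genes with the largest increases are shown in the same way, with the E-box in capitals. They lie at chr2:197705334-197705363 (plus strand, MARS2) and chr16:23557360-23557389 (minus, EARS2).
MARS2: acccggctgcgcatgcgcctctcaCACGTG
EARS2: ccggaagtgacgcagggagaagccCACGTG

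Of the 5 members with the E-box, MARS2, EARS2 and AIMP2 rose, CARS2 fell and IARS1 was not called.

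Other lists of genes were set beside the synthetases without a test between lists. Over all tested genes 61.0% were called (34.7% higher and 26.2% lower, limma with Benjamini-Hochberg), with a median log2 fold change of 0.09. In a list of 28 genes of the ATF4 amino acid response that holds no synthetase, 27 were tested, 14 fell and 6 rose (74.1% called), with a median of -0.20. By size these were led by VLDLR, a lipoprotein receptor (-1.58, adjusted p = 5.8e-05), and ATF5, a related transcription factor (1.31, adjusted p = 1.5e-05, limma with Benjamini-Hochberg for both). ALDH18A1, of proline synthesis, rose by 1.22 (adjusted p = 7.4e-07), and PHGDH, the first enzyme of serine synthesis, had -1.01 (adjusted p = 1.2e-05, limma with Benjamini-Hochberg). ATF4 itself and ASNS, its asparagine synthetase target, were picked out after their values were seen. ATF4 was at 90.4, 92.5 and 88.7 FPKM in shALKBH5 and at 113, 111 and 108 FPKM in shCtrl cells, and ASNS at 5.70, 6.41 and 5.97 against 9.56, 10.9 and 10.6 FPKM. Both were lower in every shALKBH5 library.

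The 12 cytosolic synthetases commonly listed as ATF4 targets were split, with 4 higher, 2 lower and 6 not called (50.0% called, against 61.0% of all tested genes) and a median of 0.18. Those called with the largest values were MARS1 (-0.63), WARS1 (0.57), LARS1 (0.40) and YARS1 (0.34), described above. The count of higher genes changed with the libraries and settings used. It was 7 without shCtrl replicate 2, and 2 without shALKBH5 replicate 1, shALKBH5 replicate 2 or shCtrl replicate 3, without the filter, or without the variance trend.

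Of 16 mitochondrial translation factors, 10 rose and 2 fell (75.0% called, against 34.7% higher and 26.2% lower over all tested genes), with a median of 0.36 against 0.09. C12orf65, a release factor homologue, had -0.89 (adjusted p = 0.0021), and GUF1, an elongation factor homologue, had 0.78 (adjusted p = 2.8e-04, limma with Benjamini-Hochberg). The initiation factor MTIF2 had 0.69 (adjusted p = 0.013), and LRPPRC, a mitochondrial mRNA-binding protein, had 0.69 (adjusted p = 0.0018, limma with Benjamini-Hochberg). The count of genes that fell was 1 without shCtrl replicate 3, without the filter, or with the filter at 1 FPKM. The amidotransferase that converts the glutamate loaded by EARS2 has the subunits GATC, GATB and QRSL1, which were picked out after their values were seen. GATC rose by 0.61 and GATB by 0.38, and QRSL1 had 0.15 and did not pass the test.

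Of 22 cytosolic elongation and initiation factors, 10 rose and 3 fell, with a median of 0.12. The share called, 59.1%, was near the 61.0% of all tested genes, and the median near their 0.09. Subunits of the factor that brings the initiator tRNA charged by MARS1 to the ribosome differed in direction, with EIF2S2 at -1.15 (adjusted p = 5.6e-05) and EIF2S3 at 0.82 (adjusted p = 1.3e-04, limma with Benjamini-Hochberg). EIF5, which acts with that factor, had -0.50 (adjusted p = 0.0031), and the elongation factor EEF2 had 0.32 (adjusted p = 6.1e-04, limma with Benjamini-Hochberg). After rescaling 7 were higher and 4 lower.

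Of 20 tRNA modification genes tested out of 21, 12 rose and 2 fell (70.0% called, against 34.7% higher and 26.2% lower over all tested genes), with a median of 0.26 against 0.09. The largest values were 1.01 for TRMT61A, a tRNA methyltransferase subunit, 0.67 for ELP2 of the Elongator complex, 0.56 for ADAT3, a tRNA deaminase subunit, and 0.51 for CTU1, which thiolates tRNA. Their adjusted p-values were 3.0e-05, 4.4e-04, 0.031 and 0.0026 in this order (limma with Benjamini-Hochberg). Without shALKBH5 replicate 1, 8 rose and 0 fell. The number that fell was 1 without shALKBH5 replicate 2 or 3 or shCtrl replicate 2, with the replicate block, or without the filter, and after rescaling 8 were higher and 4 lower.

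Of 22 genes of tRNA processing and export, 7 rose and 5 fell, with a median of 0.07. The share called, 54.5%, was below the 61.0% of all tested genes, and the median was near their 0.09. HSD17B10, a subunit of mitochondrial RNase P, was at 156, 156 and 157 FPKM in shALKBH5 and at 15.3, 13.0 and 13.4 FPKM in shCtrl cells. It rose by 3.49 on the log2 scale (adjusted p = 1.6e-07, limma with Benjamini-Hochberg). TSEN54, of the tRNA splicing endonuclease, had -0.50 (adjusted p = 3.5e-04). RPP38, of nuclear RNase P, had 0.43 (adjusted p = 0.0023), and TRNT1, which adds the CCA end, had 0.42 (adjusted p = 0.042, limma with Benjamini-Hochberg for all 3). After rescaling 3 were higher and 6 lower, with a median of -0.01. Without shALKBH5 replicate 1, without shCtrl replicate 1 or without the filter, 4 were higher.

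Of 5 proofreading and synthetase-related genes tested out of 6, 2 rose and 1 fell (60.0% called, against 61.0% of all tested genes), with a median of 0.35. DTD2, which clears wrongly charged tRNA, had 0.97 (adjusted p = 2.8e-04). TARS3, a relative of the threonine enzyme, had 0.35 (adjusted p = 0.042), and the D-aminoacyl-tRNA deacylase DTD1 had -0.34 (adjusted p = 9.7e-04, limma with Benjamini-Hochberg for all 3). The count of higher genes was 1 after rescaling, without the filter, with the filter at 1 FPKM, with the replicate block, and without any single library but shCtrl replicate 3.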

How the data were processed

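Input libraries (3 shALKBH5, 3 shCtrl) were grouped by their labels. Per the file headers, the authors gave 1 FPKM column for each input library. The authors deposited peak lists with a fold enrichment, the ratio of IP over input. The deposited log10 FDR of each peak was treated as a score. The aligner, the counting strand, the peak caller and the pooling of replicates are not given in the sources used here. The deposited columns of fold change, p-value and significance and the table of differential peaks hold the authors' own comparison and were not used. Labels and paper differ on the sequencer.

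Genes averaging 0.5 FPKM or more were tested two-sided by limma 3.58.1 (eBayes with trend, R 4.3.3) on log2(FPKM + 0.1), with Benjamini-Hochberg over all 12985, and the test was tested on simulated data. The exact permutation test used scipy 1.17.1. Tables and figures were made with Python 3.11.15, matplotlib 3.10.9, pandas 2.3.3 and numpy 2.4.6. Depth is unknown, and 3 libraries per group limit the precision. Peaks shared at least 1 base on the same strand, and shares have 95% Wilson intervals. RefSeq promoters were searched for 2 motifs on both strands.

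The members and lists were chosen with earlier results of these data known. Named in full were, per class, up to 3 called members with the largest changes and the 1 with the smallest, GARS1 and KARS1, and the highest and lowest by level, with up to 4 genes per other list. Peaks named were those of members with a peak in 1 list alone and the strongest. Single values, pairs and plotted points of 2 members that these rules include are not reported here, and counts, medians and sums cover all 40. Alternatives were no filter, a filter at 1 FPKM, a pseudocount of 1 or of 0.01, median-ratio scaling, the replicate block, no variance trend, each library left out, stricter peaks and a reciprocal overlap of 50%. A base of all peaks without those in non-coding RNA was added after seeing the data.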

Additional observations from a re-analysis of the deposited data

How the results depend on the processing

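Of the 26 called members, 23 stayed past the threshold under all 13 settings (7 alternatives of the fit and 6 left-out libraries). Of the 14 others, 8 stayed uncalled. Among the 520 values 0 called members changed direction, and 3 uncalled ones did (IARS1, IARS2 and VARS1, all near 0). Left-out libraries gave 24 to 29 called members. Median-ratio scaling lowered the median log2 fold change to 0.11 for cytosolic and 0.17 for mitochondrial synthetases, and the ratios of summed FPKM to 1.05 and 1.03. With each library left out, these medians ran from 0.11 to 0.24 and from 0.21 to 0.26, and called tRNA modification genes numbered 8 to 14. The shift under scaling follows from its construction, and the cause of the others was not tested.

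With the replicate number as a replicate block, 26 members were called (19 higher and 7 lower) and 7271 of all genes. The numbers do not pair the groups: deviations from the group mean in libraries of the same number correlated across genes, which are not independent replicates, at 0.018, -0.046 and 0.059.

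With a reciprocal overlap of 50%, shared member peaks were 63.5% in shALKBH5 and 71.6% in shCtrl cells, and 74.4% for cytosolic synthetases in shCtrl cells, because fewer overlaps qualify. Over all peaks these shares were 51.6% and 53.7%, so the shALKBH5 member share lay above that of all peaks here and below it with any overlap. Leaving out peaks in non-coding RNA, chosen after seeing the data, moved the 5' UTR share of all peaks to 20.5% and 20.7% and the 3' UTR share to 56.2% and 56.4%, because fewer peaks form the base. Depth is unknown, and 3 libraries per group limit the precision.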
